A study of Mus musculus with 18 samples.

Results

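The small leucine-rich proteoglycans examined here were the 10 genes Ogn, Dcn, Bgn, Lum, Fmod, Aspn, Prelp, Omd, Podn and Optc, each matched by its Ensembl ID among 32286 counted entries. Of the 10, 8 passed the filter on low counts and were among the 17841 genes tested. Dcn and Lum did not pass and are given as counts. The family was chosen by a known value, the decrease of Ogn in AT-3 cells with wild-type MRTFA. The comparisons that use the AT-3 wild-type libraries are therefore described without a test, and the tests compare the other groups. All 18 libraries enter the fit, so the AT-3 wild-type libraries still count in its filter and its spread. AT-3 with Y238A MRTFA against empty vector is tested, but it shares its 3 control libraries with the comparison that chose the family. The same 3 libraries enter the tests of the Y238A effect between lines and of the controls of the lines. Tests of Ogn that use them are not independent of the choice.

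MRTFA is a coactivator of the transcription factor SRF that is held in the cytoplasm by unpolymerised actin. The study used cultured cells of the mouse mammary carcinoma lines E0771 and AT-3, of which AT-3 came from a tumour driven by the polyoma middle T oncogene. Each line carried pRetroX, a retroviral vector induced by doxycycline, either empty, with wild-type MRTFA or with MRTFA bearing the Y238A substitution, named SRF-binding deficient in the labels. All 6 groups, the empty vector controls included, received doxycycline at 2 µg/ml for 48 h. Each group had 3 mRNA libraries, 18 in all. The design text mentions replicate sets, but nothing says that they were separate cultures, so p-values measure the spread between these libraries, which may be technical. As far as the labels say, effects of a construct and of the culture that carried it cannot be told apart.

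Small leucine-rich proteoglycans are secreted proteins with a short core of leucine-rich repeats, and many carry chondroitin, dermatan or keratan sulfate chains. They bind collagen fibrils and set the fibrils' diameter and spacing, and some also bind growth factors and receptors. Decorin (Dcn), biglycan (Bgn) and asporin (Aspn) form the first class, fibromodulin (Fmod), lumican (Lum), prolargin (Prelp) and osteomodulin (Omd) the second, osteoglycin (Ogn) and opticin (Optc) the third, and podocan (Podn) a later one. In tissues most of them are made by fibroblasts and by cells of bone, cartilage, tendon and eye. In mammary tumours decorin, lumican and biglycan are known mainly as products of the stroma.

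In the GENCODE M21 annotation of GRCm38, several of the genes are neighbours. Optc (chromosome 1, 133897199 to 133907999) and Prelp (133910304 to 133921414) lie on the minus strand with 2304 bases between them, and Fmod (134037254 to 134048277, plus strand) follows 115.839 kb further. Aspn (chromosome 13, 49544443 to 49567565), Omd (49582462 to 49592822) and Ogn (49608046 to 49624501) lie in a row on the plus strand inside the span of Cenpp, a centromere protein gene of the opposite strand. Dcn and Lum are neighbours on chromosome 10. Bgn is on chromosome X (73483602 to 73495933) and Podn on chromosome 4 (108014791 to 108096445). Cenpp shared 7 exon bases with Aspn and 0 with Omd and Ogn. The antisense gene Gm15851 shared 350 bases, 9.68% of the exon length of Prelp, and had at most 3 counts in any library.

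The sequences just before the start sites of Optc, Prelp and Ogn are shown because Optc and Prelp had the highest changes with wild-type MRTFA in both lines, leaving out Omd in E0771, whose controls had 0 counts, and Ogn had the lowest in AT-3. They are RefSeq sequences (GRCm38.p6) in the direction of transcription, with Optc at chr1:133908000-133908249 (minus strand), Prelp at chr1:133921415-133921651 (minus strand, ending 13 bases before the RefSeq start, where the annotated exon begins) and Ogn at chr13:49607765-49608014 (plus strand). Capitals mark matches to GGAATG, the core bound by TEAD factors, and to TATAAA, the TATA box, read on both strands, with the overlapping TATAAA matches of both strands joined in the first capital run of Ogn.
Optc: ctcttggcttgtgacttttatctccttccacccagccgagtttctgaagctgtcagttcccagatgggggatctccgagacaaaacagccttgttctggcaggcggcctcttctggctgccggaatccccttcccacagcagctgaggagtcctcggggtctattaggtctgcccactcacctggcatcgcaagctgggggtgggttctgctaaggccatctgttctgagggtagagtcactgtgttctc
Prelp: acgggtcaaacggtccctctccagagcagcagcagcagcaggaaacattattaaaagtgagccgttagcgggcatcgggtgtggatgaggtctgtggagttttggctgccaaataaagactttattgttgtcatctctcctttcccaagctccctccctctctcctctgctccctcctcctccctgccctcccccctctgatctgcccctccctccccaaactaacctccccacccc
Ogn: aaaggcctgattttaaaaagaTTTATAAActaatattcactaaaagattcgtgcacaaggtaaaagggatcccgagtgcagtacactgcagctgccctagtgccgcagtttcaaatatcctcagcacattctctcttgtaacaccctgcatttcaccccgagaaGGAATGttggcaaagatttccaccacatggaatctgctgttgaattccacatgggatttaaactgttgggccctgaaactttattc
RefSeq windows of 300 bases, 250 before and 50 after the start site, were present for 8 members, all but Dcn and Lum, in 9 windows. The windows of Optc and Prelp held 0 matches to the CArG box, the motif that SRF binds, and so did the windows of the other 6 members, where 1.63% of 32851 such mouse windows hold one. The CArG-like box with 1 G or C in its core had 0 matches too, against 8.50% of all windows. Ogn had a GGAATG at bases -86 to -81 from the start (14.7% of all windows hold one), and Ogn and Aspn were the members with a TATAAA (13.6%), the latter at -207 to -202 and, on the other strand, -178 to -173. These letters say nothing on binding. Longer distances, and CArG-like boxes with a mismatch in the CC or GG ends, were not searched.

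Library totals ran from 81265466 to 115260128 counts, and between 61.9% and 64.6% of nonzero counts were even, so both mates of a pair seem to have been counted and a count of 2 may be 1 fragment. Levels are CPM (counts per 1e6 reads) over totals scaled by TMM, given as mean ± SD with n = 3, and changes are log2 fold changes ± SE. The construct was at 5434 ± 1440 CPM (wild type) and 2104.5 ± 195 CPM (Y238A) in AT-3 and at 761 ± 91.1 and 320 ± 37.4 CPM in E0771, so construct and dose of construct cannot be told apart. Some libraries held transcripts of another group. In E0771 empty vector replicate 2 the median of 240 genes expressed in AT-3 and nearly silent in E0771 was 1.35% of the AT-3 level, and it was 0.508% in E0771 wild-type replicate 2 and 0.269% in E0771 Y238A replicate 1. In AT-3 Y238A replicate 1 the median of 28 genes silent in AT-3 controls was 1.31% of the AT-3 wild-type level. Where leaving out these 4 libraries changed the call of a member or moved its called fold by over 1.5 times, both values are given. Of 12 mammary epithelial markers 3 reached 1 CPM in AT-3 with empty vector and 5 in E0771, with sums of 14.9 to 15.3 and 309 to 333 CPM, and Cldn4, a tight junction claudin, had 0 counts in AT-3 with empty vector.

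Optc, Prelp and Podn rose with wild-type MRTFA in E0771, and these 3 were also at least 2-fold higher in AT-3. In E0771 these were the 3 of 8 tested members called, all higher, where 24.5% of all genes were called at an adjusted p under 0.05 in edgeR's quasi-likelihood test. The median log2 fold change of the 8 was 1.33, against -0.05 over all genes, with Bgn taken from all libraries. With Omd, whose controls had 0 counts, set to a floor of 3 counts, the median was 0.467. In AT-3 wild type against empty vector, which was not tested because it chose the family, 3 members were at least 2-fold higher (Optc, Prelp, Podn) and 3 at least 2-fold lower (Ogn, Aspn, Omd), where 38.6% of all genes moved that far. With Y238A MRTFA, AT-3 had 5 of 8 members called (43.7% of all genes), Prelp and Fmod higher and Ogn, Podn and Aspn lower. E0771 with Y238A had 2 of 8 called (12.0% of all genes), Prelp higher and Aspn lower. Wild type against Y238A in E0771 had 3 of 8 called, again Optc, Prelp and Podn and all higher with wild type (25.7% of all genes).

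**Figure D1:**
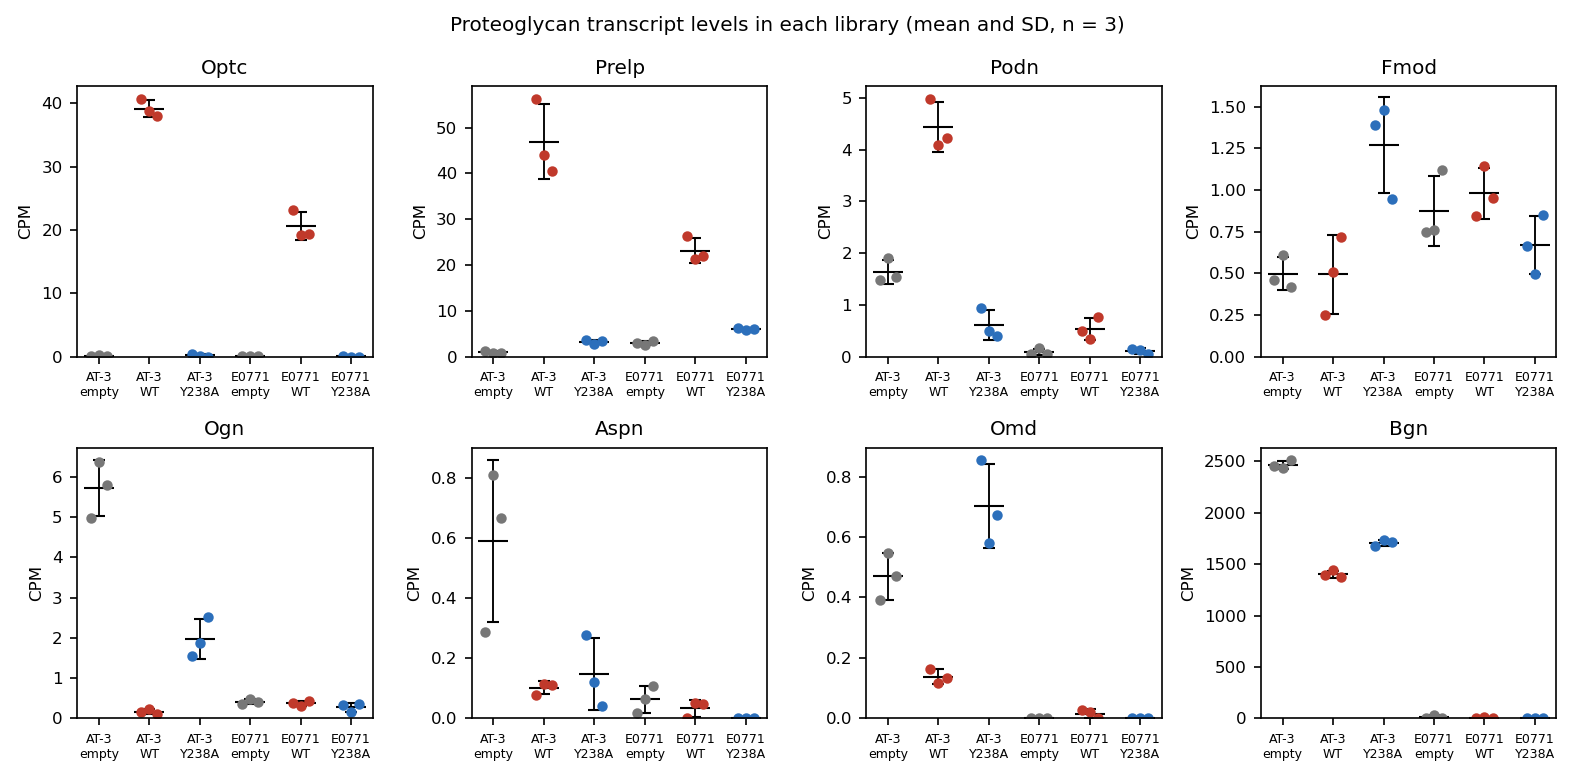
CPM of the 8 tested members in each of the 18 libraries (points; empty vector grey, wild-type MRTFA red, Y238A blue), with the mean and SD of each group of 3 and a separate axis from 0 for each gene. Optc and Prelp were highest in the wild-type libraries of both lines, Ogn was highest in AT-3 with empty vector, and Bgn was at least 1372 CPM in every AT-3 library and at most 36.95 CPM in every E0771 library.

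Optc encodes opticin, a glycoprotein best known from the vitreous of the eye. In E0771 its 3 empty vector libraries held 0.0962, 0.168 and 0.118 CPM (10, 16 and 12 counts), and its 3 wild-type libraries 23.1, 19.2 and 19.4 CPM (2576, 1886 and 1628 counts). Every wild-type library was far above every control. The log2 fold change was 7.33 ± 0.42, a 161-fold rise (adjusted p = 3.58e-09). With Y238A the 3 libraries held 0.152, 0.0434 and 0.0229 CPM, overlapping the controls, and the change of -0.71 ± 0.85 did not pass (adjusted p = 0.667). Wild type exceeded Y238A by 8.04 ± 0.45 (adjusted p = 2.4e-09). Replicate 1, which held 16 of the 22 Optc counts with Y238A, is a library with carried-over transcripts, and without it the difference was 9.21 (adjusted p = 1.99e-08). Without the 4 such libraries it was 9.26 ± 0.39 (21.2 against 0.0332 CPM, adjusted p = 3.68e-11).

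In AT-3, Optc went from 0.0694, 0.253 and 0.0990 CPM with empty vector to 40.7, 38.7 and 38.0 CPM with wild-type MRTFA, a described log2 difference of 8.07 ± 0.42. The 2 lines thus started at levels that overlapped, 0.140 ± 0.0985 CPM in AT-3 and 0.127 ± 0.0371 in E0771 (log2 difference 0.19 ± 0.75, adjusted p = 0.843). With Y238A the AT-3 libraries held 0.516, 0.200 and 0.0420 CPM, and the change of 0.82 ± 0.65 did not pass (adjusted p = 0.346). The highest of these, replicate 1, is the library with carried-over transcripts, and its Optc was 1.32% of the AT-3 wild-type level beside the median of 1.31% of the 28 genes. Without the 4 libraries with carried-over transcripts the change turned to -0.23. Without replicate 3, the lowest, the change was 1.31 and passed (adjusted p = 0.0478).

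Prelp, its neighbour, encodes prolargin, which anchors basement membranes to the underlying collagen. In E0771 it stood at 3.05, 2.53 and 3.48 CPM with empty vector, 26.3, 21.3 and 21.9 CPM with wild type and 6.19, 5.78 and 6.09 CPM with Y238A. The 3 groups did not overlap, and their order was empty vector, Y238A, wild type. Wild type raised it by 2.94 ± 0.15 (7.67-fold, adjusted p = 5.51e-12) and Y238A by 0.99 ± 0.15 (1.99-fold, adjusted p = 0.000124). Wild type exceeded Y238A by 1.94 ± 0.14 (adjusted p = 1.05e-09).

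The order of Prelp was the same in AT-3, at 1.26, 0.874 and 0.854 CPM with empty vector, 3.58, 2.87 and 3.37 CPM with Y238A and 56.3, 44.0 and 40.6 CPM with wild type. The rise with Y238A was 1.72 ± 0.17 (3.28-fold, adjusted p = 8.26e-08), and the described difference with wild type was 5.56 ± 0.17. The AT-3 controls lay below those of E0771, with a log2 difference of -1.60 ± 0.17 (adjusted p = 5.32e-08). The Y238A effect was smaller in E0771 than in AT-3, with a log2 difference of -0.72 ± 0.23 (adjusted p = 0.0243). That difference did not pass without AT-3 empty vector replicate 2 or 3, AT-3 Y238A replicate 1 or E0771 empty vector replicate 3, each left out alone (adjusted p 0.0605 to 0.0757).

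Per kilobase of exon, the Optc level in the wild-type libraries was close to that of Prelp in both lines. It was 124.7% ± 1.54 of Prelp in E0771 (range 123.4 to 126.4) and 118.8% ± 15.6 in AT-3 (range 101.4 to 131.5). In the other groups it was lower, at 6.18% ± 2.76 in E0771 with empty vector, 1.67% ± 1.55 with Y238A, 21.5% ± 17.1 in AT-3 with empty vector and 10.6% ± 9.26 with Y238A. Across the 18 libraries the log2 CPM of the 2 genes had a Pearson r of 0.861, a description of libraries that share their groups.

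Podn encodes podocan, which is known to restrain the growth of smooth muscle cells. In E0771 it held 0.0577, 0.168 and 0.0588 CPM with empty vector (6, 16 and 6 counts) and 0.502, 0.346 and 0.762 CPM with wild type (56, 34 and 64 counts). The groups did not overlap, and the rise was 2.49 ± 0.47 (5.63-fold, adjusted p = 0.000435). It was 3.16 without empty vector replicate 2, the highest control (adjusted p = 0.000221), and 3.40 ± 0.45 without the 4 libraries with carried-over transcripts, from 0.0583 to 0.632 CPM (adjusted p = 4.03e-05). With Y238A it held 0.152, 0.141 and 0.0458 CPM, and the change of 0.29 ± 0.56 did not pass (adjusted p = 0.813). In AT-3, where the controls were 4.11 ± 0.45 log2 units higher (adjusted p = 4.88e-08; 4.77 without E0771 empty vector replicate 2 and 4.78 ± 0.42 without the 4 libraries), Podn moved in opposite ways with the constructs. It was at 1.48, 1.91 and 1.54 CPM with empty vector, 4.98, 4.09 and 4.22 CPM with wild type and 0.943, 0.490 and 0.399 CPM with Y238A, 3 ranges without overlap. Y238A lowered it by 1.42 ± 0.36 on the log2 scale (adjusted p = 0.00281), and the described difference with wild type was 1.43 ± 0.34. The Y238A effect differed between lines by 1.71 ± 0.67 and did not pass (adjusted p = 0.0654). It passed without the 4 libraries with carried-over transcripts (2.56, adjusted p = 0.0124), in DESeq2 (1.74, adjusted p = 0.0225) and without E0771 empty vector replicate 2, E0771 Y238A replicate 3 or AT-3 Y238A replicate 1, each alone (adjusted p 0.0183 to 0.0256).

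The summed level of smooth muscle and pericyte markers was higher with wild-type MRTFA, as were these 3 genes. With Y238A the sum was not higher in either line, whereas Prelp rose in both. Of the 8 tested of 10 markers, 6 passed with wild type in E0771, all higher, where 24.5% of all genes were called. The sum of all 10 went from 381 to 456.5 CPM in the E0771 controls to between 10080 and 11200 CPM. The sum was 326 to 421 CPM with Y238A, and Kcnj8, a potassium channel of pericytes, had 0 counts in E0771 controls and wild type. In AT-3 the sum was 3100 to 3169 CPM with empty vector, 1420 to 2110 with Y238A and 44170 to 45930 with wild type. The sum of the mammary epithelial markers, given above for the controls, was higher with both constructs in both lines. It was 582.5 to 695.6 CPM with wild type and 383 to 407 with Y238A in E0771, and 50.9 to 53.75 and 77.45 to 95.2 in AT-3. With wild type in E0771 4 of these 12 markers passed, all higher, where 24.5% of all genes were called. With Y238A in E0771 2 passed, both higher (12.0% of all genes). With Y238A in AT-3 3 rose and 2 fell (43.7% of all genes), and 2 reached 1 CPM, against 3 in the AT-3 controls. The part of either marker list in the result was not tested. In bulk RNA a change in the number of cells of a type and in RNA per cell cannot be told apart.

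**Figure D2:**
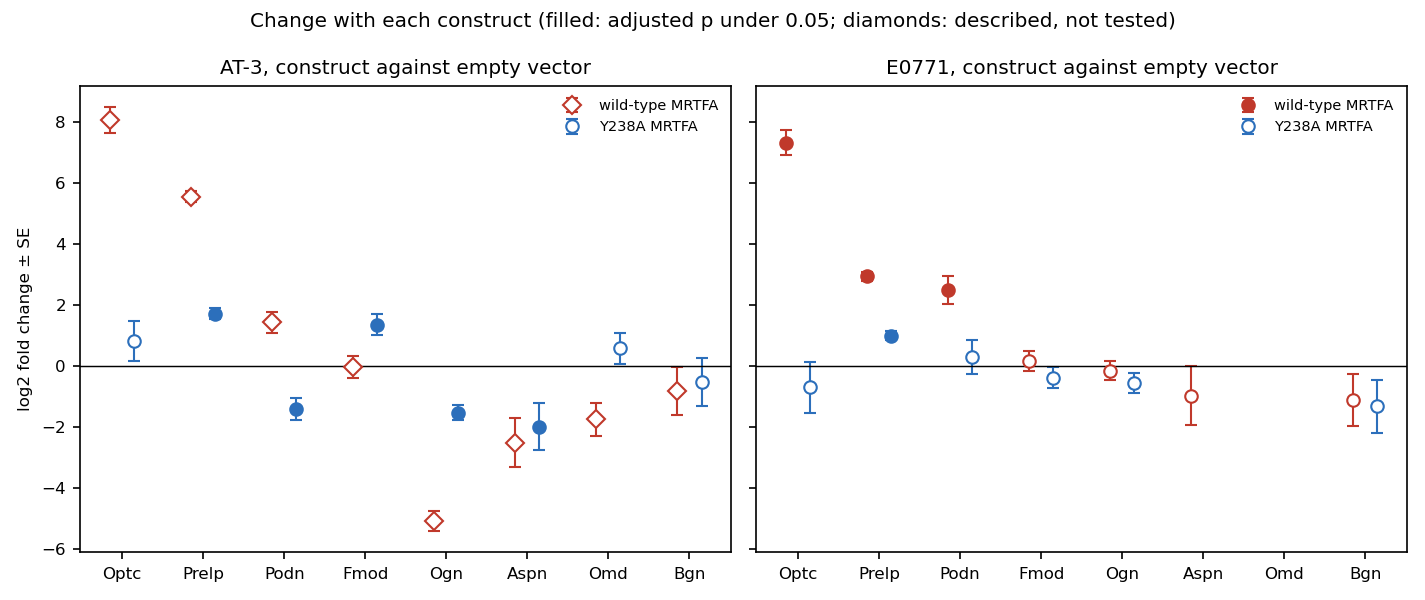
Log2 fold change ± SE of each construct against the empty vector of its line, for wild-type (red) and Y238A MRTFA (blue); filled points passed an adjusted p of 0.05, and diamonds mark the AT-3 wild-type values, described without a test. Omd in E0771 and Aspn in E0771 with Y238A are not drawn, since a group had 0 counts. Optc, Prelp and Podn are above 0 with wild type in both lines, and Ogn has the lowest value, -5.10 ± 0.33 in AT-3.

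The 3 neighbours on chromosome 13 were mostly lower with MRTFA in AT-3 and were scarce in E0771. Ogn encodes osteoglycin, also called mimecan, a regulator of collagen fibrils found in bone, cornea and vessel wall. Its AT-3 empty vector libraries held 4.97, 6.36 and 5.81 CPM (430, 604 and 469 counts). Its Y238A libraries held 1.55, 1.86 and 2.52 CPM (156, 186 and 240 counts), all below the controls, and Ogn fell by 1.53 ± 0.26 on the log2 scale (2.89-fold, adjusted p = 5.29e-05). The wild-type libraries held 0.155, 0.231 and 0.113 CPM (16, 20 and 10 counts), all below those of Y238A. This decrease, -5.10 ± 0.33, is the value that chose the family.

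In E0771 the controls of Ogn stood at 0.346, 0.484 and 0.412 CPM, 13.8-fold below those of AT-3 (log2 difference 3.79 ± 0.29, adjusted p = 2.57e-10). Those AT-3 controls are also part of the value that chose the family. Wild type held 0.377, 0.306 and 0.428 CPM and overlapped the controls, with a change of -0.16 ± 0.31 (adjusted p = 0.771). Y238A held 0.342, 0.152 and 0.343 CPM, just below the controls, with a change of -0.56 ± 0.32 (adjusted p = 0.288). The Y238A effect differed between lines by 0.97 ± 0.41 and did not pass (adjusted p = 0.0927). It passed without E0771 Y238A replicate 2 (1.25, adjusted p = 0.0203).

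Omd encodes osteomodulin, a keratan sulfate proteoglycan of bone that binds collagen. In AT-3 it held 0.393, 0.548 and 0.470 CPM with empty vector and 0.580 to 0.854 CPM with Y238A, the latter all higher, but the change of 0.57 ± 0.50 did not pass (adjusted p = 0.389). With wild type it held 0.165, 0.115 and 0.135 CPM, a described difference of -1.75 ± 0.54. In E0771 it had 0 counts in the 6 empty vector and Y238A libraries and 3, 2 and 0 counts with wild type, which did not pass against the controls (adjusted p = 0.0624) but did without replicate 3 (adjusted p = 0.0306). Against a floor of 3 counts over the group, the AT-3 controls (124 counts) were 47.5-fold higher than those of E0771 (adjusted p = 8.58e-07).

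Aspn encodes asporin, which binds collagen and TGF-beta. In AT-3 it held 25, 77 and 54 counts with empty vector (0.289, 0.811 and 0.668 CPM), 28, 12 and 4 with Y238A and 8, 10 and 10 with wild type. The Y238A libraries lay below the controls, and the fall of 1.99 ± 0.78 on the log2 scale barely passed (adjusted p = 0.0462). It did not pass when AT-3 empty vector replicate 2 or 3, any AT-3 wild-type library, AT-3 Y238A replicate 2 or 3, or replicate 2 or 3 of E0771 empty vector or wild type was left out alone (adjusted p 0.0506 to 0.169). Without AT-3 Y238A replicate 1 the value was -2.84 (adjusted p = 0.0263), as it was without the 4 libraries with carried-over transcripts (adjusted p = 0.0271). In E0771 it had 2, 6 and 11 counts with empty vector, 0, 5 and 4 with wild type and 0 in the 3 Y238A libraries. Set to a floor of 3 counts over the group, Y238A was 6.0-fold lower than the controls, and the edgeR test passed (adjusted p = 0.0338). That call was lost without E0771 empty vector replicate 2 or 3 or any 1 of the Y238A libraries (adjusted p 0.0614 to 0.103), and without the 4 libraries with carried-over transcripts (0.141). The AT-3 controls exceeded those of E0771 by 3.19 ± 0.84 (adjusted p = 0.0023), and by 3.80 without E0771 empty vector replicate 3 (adjusted p = 0.00378).

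The summed level of fibroblast markers was lower beside the lower Ogn in AT-3, but their median change was not lower in each group. The sum of 12 such markers was 804 to 868 CPM with empty vector, 476 to 522 with Y238A and 308 to 323 with wild type, while the median log2 fold change of the 11 tested was -0.67 with Y238A and 0.21 with wild type, against 0.01 and 0.07 over all genes. With Y238A 1 of the 11 rose and 4 fell, where 43.7% of all genes were called. Fap, a fibroblast surface protease, had 0 counts in the AT-3 controls. The sum of 12 osteoblast and chondrocyte markers was 147 to 166, 217 to 228 and 92.2 to 92.6 CPM in these 3 groups, with Sost, an osteocyte product, and Snorc, a cartilage proteoglycan, at 0 counts in the controls. Their part in the result was not tested.

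Fmod encodes fibromodulin, which guides the maturation of collagen fibrils. In AT-3 it held 0.463, 0.611 and 0.421 CPM with empty vector and 1.39, 1.48 and 0.944 CPM with Y238A, without overlap. The rise was 1.35 ± 0.35 (2.54-fold, adjusted p = 0.00323). With wild type it held 0.252, 0.507 and 0.721 CPM, overlapping the controls (-0.03 ± 0.36, described). In E0771 the 3 groups overlapped, at 0.751 to 1.12 CPM with empty vector, 0.843 to 1.14 with wild type and 0.499 to 0.847 with Y238A. The changes of 0.16 ± 0.33 with wild type and -0.39 ± 0.34 with Y238A did not pass (adjusted p = 0.794 and 0.519). The Y238A effect was lower in E0771 than in AT-3, with a log2 difference of -1.73 ± 0.48 (adjusted p = 0.0112), which did not pass without the 4 libraries with carried-over transcripts (-1.75, adjusted p = 0.0593). Fmod and Prelp were the 2 of 8 members called in this difference between lines, where 25.8% of all genes were called.

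Bgn encodes biglycan, a chondroitin and dermatan sulfate proteoglycan that binds collagen and can signal through Toll-like receptors. It made up nearly all of the family's transcripts in AT-3, at 2451, 2439 and 2509 CPM with empty vector. It held 1673, 1730 and 1716 CPM with Y238A and 1390, 1442 and 1372 CPM with wild type, 3 ranges without overlap. In the fit of all 18 libraries the Y238A change of -0.53 ± 0.78 did not pass (adjusted p = 0.643). That fit uses 1 estimate of the spread for both lines. In a fit of the 9 AT-3 libraries alone the change was -0.53 ± 0.04 (adjusted p = 6.08e-09), and without the 4 libraries with carried-over transcripts it was -0.52 ± 0.08 (adjusted p = 4.08e-05). The described difference with wild type was -0.82 ± 0.79 in the fit of all libraries.

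In E0771, Bgn held 2.21, 36.95 and 2.00 CPM with empty vector, 3.48, 10.6 and 4.88 with wild type and 7.82, 4.12 and 4.25 with Y238A. The highest library of each group was the one with the most AT-3 transcripts. In empty vector replicate 2, Bgn was 1.5% of the AT-3 level beside a median of 1.35% for 240 other AT-3 genes. With all libraries the change was -1.11 ± 0.86 with wild type (adjusted p = 0.399) and -1.33 ± 0.87 with Y238A (adjusted p = 0.374). Without the 4 libraries both directions turned, to 0.97 with wild type (adjusted p = 1.18e-05) and 0.99 with Y238A (adjusted p = 6.49e-05), from 2.11 CPM (2.00 and 2.21) with empty vector to 4.18 (3.48 and 4.88) and 4.185 (4.12 and 4.25). Leaving out empty vector replicate 2 alone gave 1.58 with wild type (adjusted p = 0.0274). The difference of the Y238A effect between lines likewise turned from -0.80 ± 1.16 (adjusted p = 0.699) to 1.51 without the 4 libraries (adjusted p = 1.54e-06). The AT-3 controls exceeded those of E0771 by 7.50 ± 1.05 with all libraries (adjusted p = 2.34e-05), by 10.18 ± 0.54 without E0771 empty vector replicate 2 (adjusted p = 4.02e-09) and by 10.19 ± 0.13 without the 4 libraries (adjusted p = 6.66e-19).

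**Figure D3:**
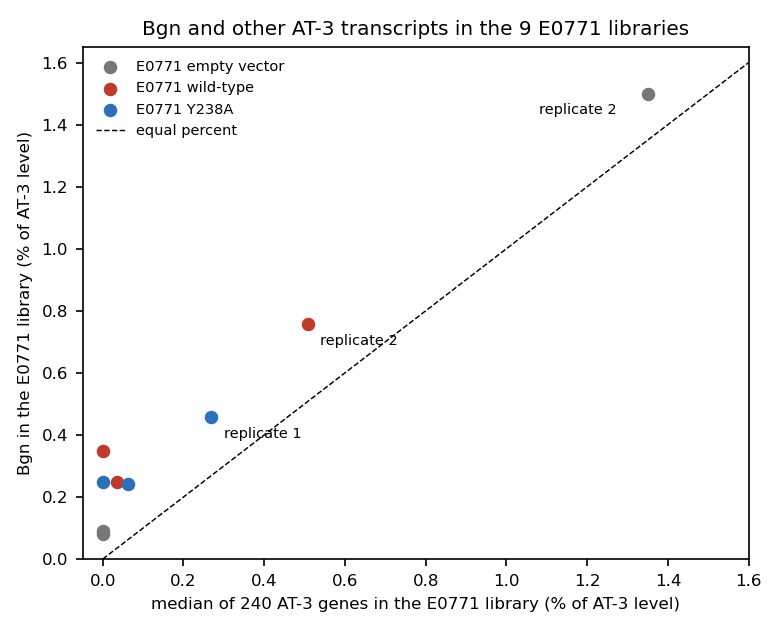
Bgn in each of the 9 E0771 libraries, as a percent of the mean AT-3 level with the same construct (vertical axis), against the median percent of 240 AT-3 genes nearly silent in E0771 (horizontal axis); the dashed line marks equal percent. Empty vector replicate 2 is at 1.35 and 1.5, wild-type replicate 2 at 0.508 and 0.758, and Y238A replicate 1 at 0.269 and 0.458, while the other 6 libraries have a median of at most 0.0616%.

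Dcn and Lum, decorin and lumican, the abundant proteoglycans of stromal fibroblasts, were near 0 in both lines. Dcn had 16 counts over the 3 empty vector libraries of AT-3, 30 with wild type and 20 with Y238A, and 8, 6 and 2 counts in E0771. Lum had 12 counts in AT-3 empty vector replicate 1, 2 in E0771 Y238A replicate 3 and 0 in the other 16 libraries, and 3 counts over a group of 3 libraries correspond to 0.00997 to 0.0114 CPM. With no filter on low counts, the lowest adjusted p of their tested differences in edgeR was 0.103, for Lum between the controls of the lines, so a change was not detectable at this depth.

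Set against each other per kilobase of exon, the 10 genes summed to 408 ± 6.06 CPM per kb in AT-3 with empty vector, 259 ± 6.46 with wild type and 282 ± 4.63 with Y238A. Bgn was 99.1% ± 0.113 of the sum with empty vector, 99.0% ± 0.102 with Y238A and 88.6% ± 1.02 with wild type, where Optc made up 5.86% ± 0.191 and Prelp 5.01% ± 0.842. Without Bgn the other 9 summed to 3.58 ± 0.442 CPM per kb with empty vector, 2.69 ± 0.242 with Y238A and 29.6 ± 2.86 with wild type. In E0771 those 9 summed to 1.36 ± 0.180 with empty vector, 2.04 ± 0.154 with Y238A and 14.99 ± 1.56 with wild type. Optc (49.8% ± 2.07) and Prelp (39.95% ± 2.14) were most of the family sum in E0771 with wild type, whereas Prelp led with Y238A (57.7% ± 6.83). Shares in E0771 with empty vector depend on Bgn of replicate 2, which was 82.8% of the sum there against 17.25% in the lowest library. The direction of a share depends on every gene in the sum, and no test was made on shares.

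**Figure D4:**
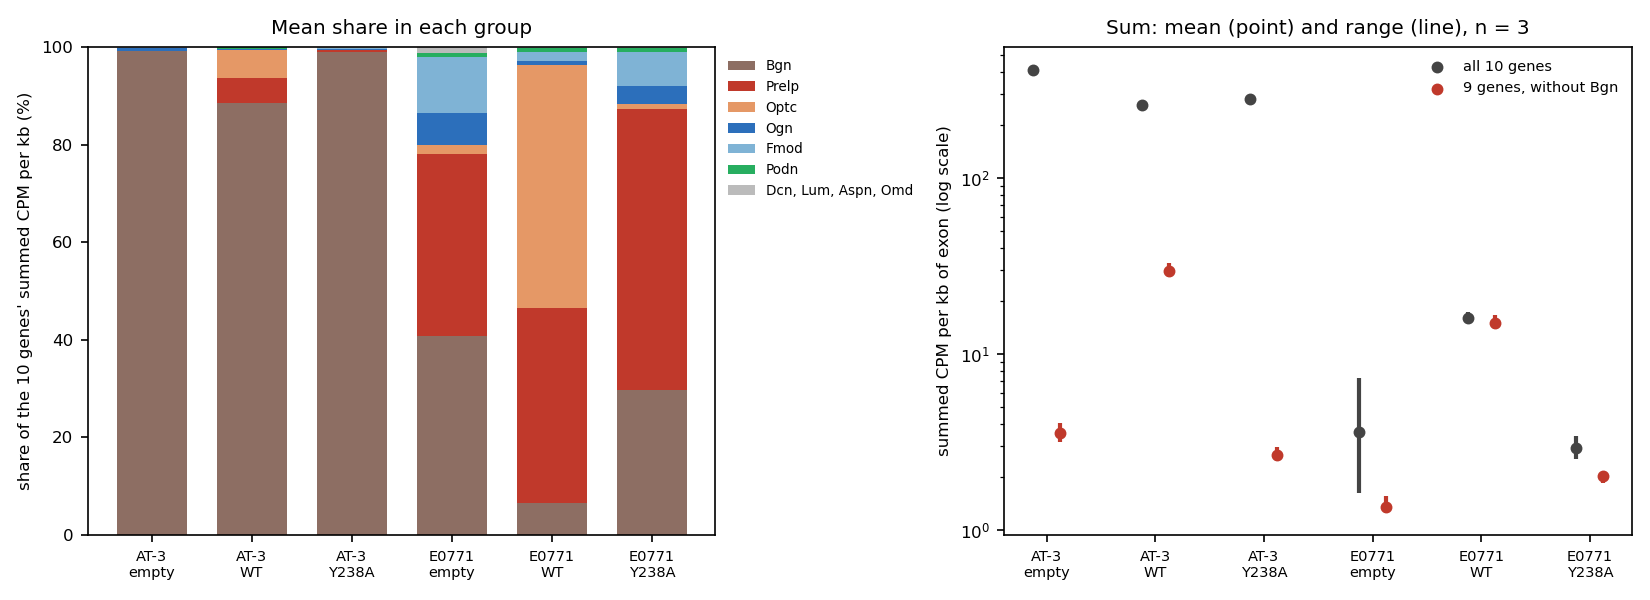
Left, mean share of each gene in the summed CPM per kb of the 10 genes, by group of 3 libraries; right, the sum over all 10 genes and over the 9 without Bgn (log axis; point, mean; line, lowest to highest library). Bgn fills 88.6% to 99.1% of the AT-3 bars, and the sum without Bgn is highest in the wild-type groups, at 29.6 CPM per kb in AT-3 and 14.99 in E0771.

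The order of the members by level per length in AT-3 controls was Bgn (404 ± 6.17 CPM per kb), Ogn (2.23 ± 0.272), Podn (0.384 ± 0.0543), Prelp (0.276 ± 0.0634), Aspn (0.250 ± 0.115), Omd (0.209 ± 0.0344), Fmod (0.151 ± 0.0302), Optc (0.0545 ± 0.0382), Lum (0.0189 ± 0.0327) and Dcn (0.0103 ± 0.00582). Prelp, Aspn and Omd lay within each other's spread. In E0771 controls Prelp (0.835 ± 0.132), Fmod (0.265 ± 0.0634) and Ogn (0.161 ± 0.0269) led apart from Bgn, which was 0.328 CPM per kb in the lowest and 6.06 in the highest library. Between the controls of the lines 7 of 8 members were called, 5 higher in AT-3 (Ogn, Bgn, Aspn, Omd, Podn) and 2 lower (Prelp, Fmod), where 72.0% of all genes were called. Optc was the exception. The Fmod difference of -0.81 ± 0.35 (adjusted p = 0.0435) was lost without AT-3 empty vector replicate 1 or 3, AT-3 wild-type replicate 2, AT-3 Y238A replicate 1 or 2, E0771 empty vector replicate 3 or E0771 Y238A replicate 1, each alone (adjusted p 0.0503 to 0.17), and without the 4 libraries with carried-over transcripts (0.0653).

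Genes next to the members were measured to see how far along the chromosome each change reached, within 200 kb of the gene, a distance chosen after values were seen. On chromosome 1, Atp2b4, a calcium pump gene 120.373 kb from Prelp between start sites, did not pass with wild type in E0771 (0.39 ± 0.22, adjusted p = 0.217). Fmod, on the other side, did not pass either. Btg2, an antiproliferative gene 157.706 kb from Prelp, rose with both constructs in E0771 (1.53 ± 0.16 with wild type, adjusted p = 4.05e-07, and 1.62 ± 0.16 with Y238A, adjusted p = 9.65e-07) and with Y238A in AT-3 (2.01 ± 0.15, adjusted p = 1.33e-09). Chit1, a chitinase gene, rose with Y238A in both lines (1.61 ± 0.26, adjusted p = 0.000331 in E0771 and 1.33 ± 0.35, adjusted p = 0.00386 in AT-3). With wild type in E0771 Chit1 did not pass (-0.11 ± 0.27, adjusted p = 0.833). In AT-3 the described differences with wild type were 4.19 for Chit1 and 1.94 for Btg2, beside 0.56 for Atp2b4 and -0.03 for Fmod. On chromosome 13, Ecm2, an extracellular matrix gene 103.236 kb before Ogn, fell with Y238A in AT-3 by 2.04 ± 0.64 on the log2 scale (adjusted p = 0.0137), and Iars, a tRNA synthetase gene, fell by 0.92 ± 0.07 (adjusted p = 3.06e-09). Cenpp, which spans the 3 members on the opposite strand, did not pass there (-0.21 ± 0.14, adjusted p = 0.239). Near Bgn, the calcium pump gene Atp2b3 rose in E0771 wild type (2.05 ± 0.42, adjusted p = 0.00142), as did Pnck, a kinase gene (2.71 ± 0.37, adjusted p = 1.33e-05). In AT-3, where Bgn was lower with both constructs, the described differences with wild type were 12.08 for Atp2b3 and 3.96 for Pnck. Atp2b3 also passed with Y238A in AT-3 (6.08 ± 1.62, adjusted p = 0.00502). AT-3 Y238A replicate 1 holds carried-over wild-type transcripts, and the value without it is not given.

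**Figure D5:**
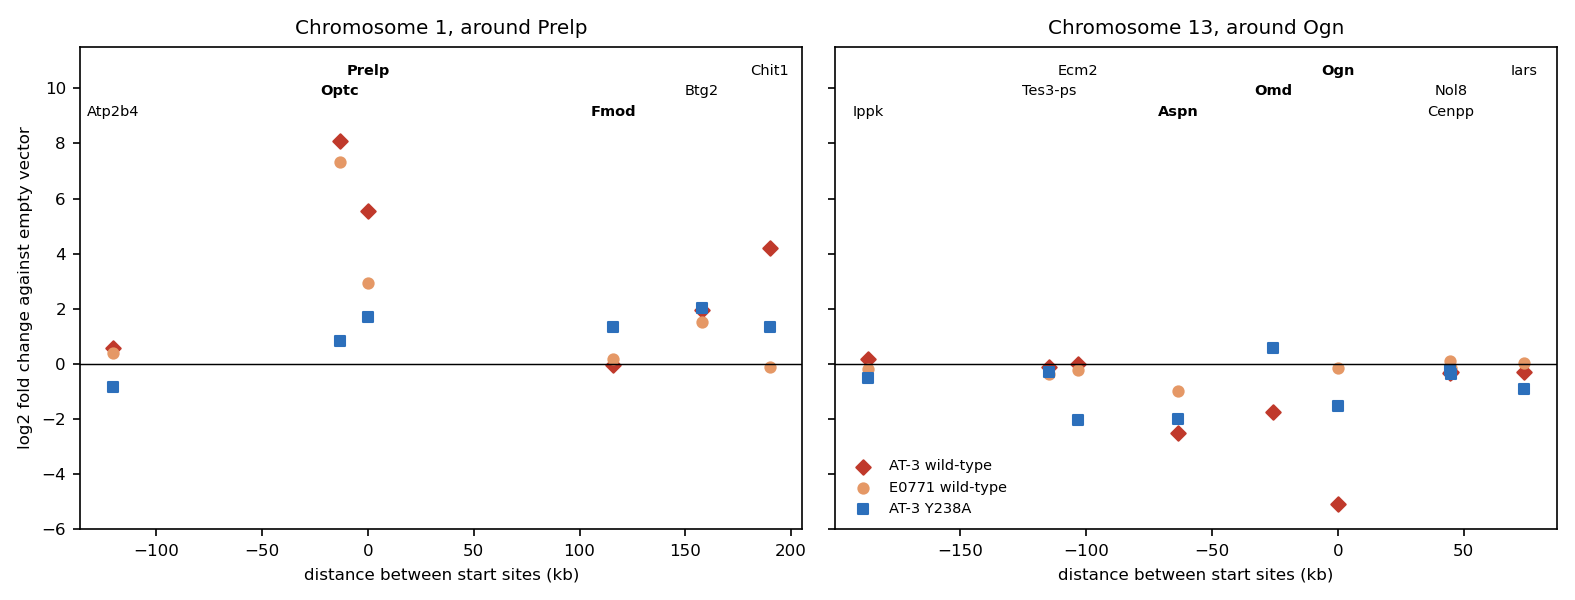
Log2 fold change against empty vector of genes around Prelp on chromosome 1 (left) and around Ogn on chromosome 13 (right) by distance between start sites in kb, members in bold, for AT-3 wild type (red diamonds, described without a test), E0771 wild type (orange circles) and AT-3 Y238A (blue squares). Omd in E0771 is not drawn, since its controls had 0 counts, and the scarce transcript Gm1627 is left out. Optc and Prelp stand at 7.33 and 2.94 in E0771 with wild type, and Atp2b4 and Fmod on either side at 0.39 and 0.16. Beyond Fmod, Btg2 stands at 1.53 in E0771 with wild type, and Chit1 at -0.11 there and 4.19 in AT-3 with wild type.

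Genes of like pattern were ranked by Pearson r of log2 CPM over the 18 libraries among 11518 genes, for the 5 members with a mean of at least 1 CPM. The libraries share groups, so these are descriptions. Optc was closest to Lmod1, an actin nucleator of smooth muscle (r = 0.991), Apol10b (0.985) and Tnmd, a tendon glycoprotein (0.984). Prelp was closest to Jarid2 (0.983), Flnc, a filamin (0.979), and F8a (0.977). Podn was closest to Sema7a (0.979), Cnn1, the smooth muscle protein calponin (0.976), and Schip1 (0.968). Ogn was closest to Mmp2, a gelatinase (0.987), Slc39a10 (0.981) and St5 (0.975), and Bgn to Plcg2 (0.999), Snx18 and Sox11 (both 0.997). Within the family, Bgn and Omd had an r of 0.927 and Ogn and Prelp of -0.80.

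Genes of the same family and genes that build, bind or cut these proteoglycans moved in both directions. Their counts stand beside the shares called over all genes, 24.5% with wild type and 12.0% with Y238A in E0771 and 43.7% with Y238A in AT-3. Of 8 further leucine-rich proteoglycan family genes 6 were tested. With wild type in E0771 1 of them passed, Podnl1, a podocan relative, which rose (0.38 ± 0.13, adjusted p = 0.0413). With Y238A in AT-3 2 rose, Podnl1 by 2.73 ± 0.14 (2.74 to 18.2 CPM, adjusted p = 4.64e-12) and Tsku, a secreted Wnt and BMP inhibitor, by 0.36 ± 0.08 (adjusted p = 0.000541), and 1 fell, Ecm2, given above.

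Of 22 chondroitin and dermatan sulfate synthesis genes, all tested, 3 rose and 2 fell with wild type in E0771, and 7 rose and 4 fell with Y238A in AT-3. Csgalnact1, which starts the chondroitin chain, rose in both, by 1.93 ± 0.26 (adjusted p = 8.04e-06) and 1.64 ± 0.22 (adjusted p = 3.24e-06). The sulfotransferase Chst12 rose in E0771 with wild type (0.92 ± 0.15, adjusted p = 0.000356), and Chst14, the dermatan sulfotransferase, fell by 0.99 ± 0.12 on the log2 scale with Y238A in AT-3 (adjusted p = 6.27e-07). Of 12 keratan sulfate genes 2 passed with wild type in E0771, both higher, St3gal2 (0.46 ± 0.05, adjusted p = 3.39e-07) and Fut8 (0.32 ± 0.06, adjusted p = 0.000334). With Y238A in AT-3 7 passed, all higher, and Chst1, the keratan sulfotransferase, rose by 3.70 ± 0.15 (8.33 to 108 CPM, adjusted p = 3.91e-13).

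Of 14 collagen genes, those of fibrils and those of type VI, 1 rose and 6 fell with wild type in E0771. Their median was -0.37 against -0.05 over all genes. Col6a1 fell by 0.82 ± 0.09 (adjusted p = 3.51e-06), Col6a2 by 0.73 ± 0.10 (adjusted p = 3.62e-05) and Col1a1 by 0.40 ± 0.09 (adjusted p = 0.00249) on the log2 scale. With Y238A in AT-3 2 rose and 5 fell, Col5a3 rising by 3.55 ± 0.06 (adjusted p = 1.75e-19) and Col6a2 falling by 2.06 ± 0.10 (adjusted p = 9.1e-11). With Y238A in E0771 3 rose and 1 fell, and Col1a1 rose by 1.01 ± 0.09 (adjusted p = 4.69e-07).

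Of 23 receptors and growth factors bound by decorin or biglycan 21 were tested, and 7 rose and 5 fell with wild type in E0771. Ccn2, a matricellular growth factor, rose by 3.39 ± 0.32 (8.80 to 92.1 CPM, adjusted p = 5.15e-06), Tgfb2 by 1.29 ± 0.07 (adjusted p = 5.84e-12), Egfr by 1.26 ± 0.07 (adjusted p = 2.39e-11) and the biglycan receptor Tlr2 by 0.93 ± 0.13 (adjusted p = 2e-05). With Y238A in AT-3 5 rose and 8 fell, Tgfb2 falling by 0.94 ± 0.06 (adjusted p = 2.53e-10) and Egfr by 0.67 ± 0.07 (adjusted p = 7.44e-08) on the log2 scale. Of 16 protease genes, a list that counts the enhancer Pcolce, 14 were tested, and 4 rose and 3 fell with wild type in E0771. Mmp14, a membrane collagenase, rose by 0.55 ± 0.04 (adjusted p = 6.13e-09) and Mmp13, also a collagenase, by 3.20 ± 0.63 from 0.0327 to 0.313 CPM (adjusted p = 0.000701). Pcolce, an enhancer of procollagen cleavage, fell by 0.42 ± 0.07 on the log2 scale (adjusted p = 0.000186). With Y238A in AT-3 6 genes of this list rose, Pcolce among them, and 4 fell, and Htra1 rose by 1.27 ± 0.08 (adjusted p = 8.07e-11).

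Of 28 other proteoglycan core genes 24 were tested, and 3 rose and 6 fell with wild type in E0771. The heparan sulfate proteoglycans Gpc1, Sdc1 and Col18a1 fell by 0.68 ± 0.05, 0.45 ± 0.05 and 0.55 ± 0.06 on the log2 scale (adjusted p = 2.84e-09, 2.37e-07 and 1.11e-06), and Sdc2 rose by 0.46 ± 0.05 (adjusted p = 8.07e-07). In AT-3 the described differences with wild type were -1.65 for Gpc1, -1.03 for Sdc1 and 0.55 for Sdc2, but 3.20 for Col18a1, opposite to E0771. With Y238A in AT-3 3 rose and 5 fell, Sdc4 rising by 0.74 ± 0.05 (adjusted p = 1.16e-10).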

How the data were processed

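Raw read counts per gene were deposited by the authors as 1 table of 18 libraries. Per the labels' protocols, RNA was purified on RNeasy columns and the NuGen Universal Plus mRNA kit was used for the libraries. Per the submitters' processing notes, STAR, featureCounts and GRCm38 were used; versions, annotation release and strand setting are not given in the sources used here. Without a known strand setting, reads of a gene and of an antisense partner cannot be told apart.

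Counts were analysed by Ensembl ID in R 4.3.3 with edgeR 4.0.16: a filter on low counts (filterByExpr over the 6 groups, with a minimum count of 10 and a total of 15), TMM scaling and the robust quasi-likelihood F test over 6 group means, with Benjamini-Hochberg adjustment over all 17841 genes and a threshold of 0.05. SE is the log2 fold change over the root of F. Groups came from the sample titles, and 6 of 9 contrasts were tested. The members and lists were chosen with earlier results of these data known. All members were named; from each related list up to 4 genes by smallest p in E0771 wild type and up to 2 in AT-3 Y238A were allowed, and for members of at least 1 CPM the 3 genes of highest r. Exon lengths came from GENCODE M21 and start-site windows from RefSeq. A group at 0 counts was set to a floor of 3 counts over the group, which covers counting error at most. Both mates seem to be counted, so 3 counts may stand for fewer fragments. Folds against the floor may therefore be too high. Other marker lists (endothelial, leukocyte) summed to at most 16.4 and 77.1 CPM in any library. Endothelial sums were 2.82 to 2.835 CPM with empty vector and 13.9 to 16.4 with wild type in AT-3, and 2.44 to 2.49 and 7.67 to 10.3 in E0771. Leukocyte sums in AT-3 were 5.38 to 6.13 CPM with empty vector, 25.4 to 25.7 with wild type and 71.6 to 77.1 with Y238A. In E0771 they were 7.77 to 9.66, 6.11 to 6.69 and 15.2 to 19.95 CPM in that order. No 2 replicates agreed within sampling noise (chi-square per degree of freedom at least 6.97). In E0771 wild type against empty vector, libraries of the same number deviated together (r = 0.364, 0.638 and 0.429). The numbers thus seem to pair the samples there. Replicate 2, with the highest r, holds carried-over AT-3 transcripts in both groups, and their part in r was not tested. In AT-3, each library was also closest to its own number in Y238A against empty vector (r = 0.0845, 0.0128 and 0.0478). The same held in wild type against Y238A (0.0431, 0.0322 and 0.0129), but these r were small. In the other contrasts checked the numbers did not match throughout. The alternatives tried were no filter on counts, a filter asking for 3 libraries of 1 CPM and a mean of 50 counts (called stricter), scaling by library totals or by DESeq2's size factors, the DESeq2 1.42.0 test, each line alone, a replicate block, an added log2 limit of 1, each library left out, and the 4 libraries with carried-over transcripts left out.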

Additional observations from a re-analysis of the deposited data

Results flagged for a closer look

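The change with Y238A MRTFA against empty vector differed between the lines for 2 of 8 tested members by an interaction test in edgeR. Over all genes 25.8% were called by that test. For Fmod the E0771 change minus the AT-3 change was -1.73 (adjusted p = 0.0112), with 3 of 3 AT-3 Y238A libraries above every AT-3 control and overlapping groups in E0771. For Prelp it was -0.72 (adjusted p = 0.0243), with the Y238A libraries above the controls in both lines, 3 of 3 in each. Fmod did not pass without the 4 libraries with carried-over transcripts (adjusted p = 0.0593). Prelp did not pass in 4 of the fits with 1 library left out (adjusted p 0.0605 to 0.0757).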

How the results depend on the processing

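Optc, Prelp and Podn kept their direction and call in E0771 wild type against empty vector under every alternative that tested them, and the number of members called there stayed at 3 or 4 when each library was left out. The count in E0771 Y238A against empty vector fell from 2 to 1 with the stricter filter, with each line alone and with the added log2 limit, and was 1 to 2 when each library was left out. The count for the Y238A effect between lines was 1 with the added log2 limit and 1 to 4 over the left-out libraries. The direction of Bgn reversed without the 4 libraries with carried-over transcripts in E0771 wild type (0.97), E0771 Y238A (0.99) and the Y238A effect between lines (1.51), and without E0771 empty vector replicate 2 in the first (1.58) and last (1.89, adjusted p = 0.0246); with each library left out in turn those 2 values ran from -1.72 to 1.58 and from -1.32 to 1.89; the cause of the transcripts was not tested. Without the 4 libraries 1662 genes rose and 1100 fell in E0771 wild type, against 2000 and 2364 with all. With the replicate block Aspn lost its call in AT-3 Y238A (adjusted p = 0.121), where the numbers match only weakly. Fmod lost its call with the block in the controls of the lines (adjusted p = 0.0522), where matching of the numbers was not checked. The replicate block changed no other member's call. Scarce transcripts limit what depth can show: Omd, Aspn, Dcn and Lum had at most 86 counts in any library, and both mates seem to be counted, so their precision is lower than the counts imply.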

Other observations

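Between the empty vector controls, most genes that build or bind these proteoglycans were higher in AT-3 than in E0771, where 72.0% of all genes differed in either direction. Of 22 chondroitin and dermatan sulfate synthesis genes 18 were higher and 3 lower in AT-3, with a median log2 difference of 0.66 against 0.01 over all genes. Of 12 keratan sulfate genes 7 were higher and 4 lower (median 1.09). Of 21 receptors and growth factors 16 were higher and 5 lower (median 2.17). Of 14 protease genes, Pcolce counted, 12 were higher and 2 lower (median 2.19). Collagen genes, those of fibrils and of type VI, went the other way, with 5 of 14 higher and 8 lower in AT-3 (median -0.38).

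With Y238A in E0771, where 12.0% of all genes were called, 1 of the 22 chondroitin and dermatan sulfate genes passed, lower. Of the 12 keratan sulfate genes 1 passed, higher. Of 14 protease genes, Pcolce counted, 4 rose and 1 fell, and of 21 receptors and growth factors 1 rose and 5 fell. Bmp1, a procollagen and biglycan protease, rose by 0.31 ± 0.05 (adjusted p = 0.00018), and Egfr fell by 0.35 ± 0.07 on the log2 scale (adjusted p = 0.00319).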
